A study of Mus musculus with 51 samples.

Results

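Expression of *Hox* genes and differentiation factors was compared between *Smchd1* maternal null (*Smchd1* matΔ) and control (*Smchd1* wt) mouse embryonic stem cells (mESCs) at day 2.5 of their differentiation towards neuromesodermal progenitors (NMPs). The comparison takes every library labelled day 2.5, which is 3 maternal null and 4 control libraries of the 45 in the time course and of 51 samples in the series analysed here. For each library, log2 RPKM (reads scaled by transcript length and library size, on the log2 scale) is given for 39 *Hox* genes and 34 factors, 73 genes in all. The question is whether cells without maternal SMCHD1 hold different levels of *Hox* genes soon after Wnt signalling is switched on.

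All cells were male C57BL/6/Cast F1 mESCs. Control cells carried the genotype Smchd1[fl/+], in which the floxed allele still works, and maternal null cells Smchd1[del/+], in which Zp3-Cre, a recombinase active in the growing oocyte, had removed the allele that came from the mother. The maternal null cells therefore kept an intact allele from the father, and the deletion took away the oocyte's supply of the protein. All cells were differentiated in serum-free N2B27 medium with FGF, to which CHIR99021, an inhibitor of GSK3 that activates canonical Wnt signalling, was added at day 2. The labels assign control replicates 1 to 3 and all 3 maternal null replicates to line 1 of each genotype and control replicate 4 to line 2, whereas the study describes technical replicates of more than a single line per genotype. The p-values here measure the spread between these libraries, which may be technical, and genotype and cell line cannot be told apart. *Smchd1* itself is not among the 73 genes, so the deletion was not checked in these libraries.

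SMCHD1 is a chromatin protein that helps to keep certain genes silent, among them genes of the inactive X chromosome, imprinted genes and *Hox* clusters. The *Hox* genes lie in 4 clusters, *HoxA* to *HoxD*, and are switched on in the order in which they stand, from *Hox1* at the anterior end to *Hox13* at the posterior end. Wnt signalling starts this sequence in the progenitors of the trunk, and the combination of *Hox* genes in a cell gives it its position along the body axis. NMPs, which form spinal cord and trunk mesoderm, express the mesodermal regulator *T* (named *Tbra* in the data) together with the neural and pluripotency factor *Sox2*.

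Wnt signalling acts on its targets through TCF/LEF factors, so the core of their binding motif, CTTTGA on either strand, was searched in windows from 250 bases before to 50 bases after the gene start (RefSeq, GRCm38.p6). A window was found for 45 of the 73 genes, and 9 of these held the motif (20%), against 18.2% of 27025 genes genome-wide. Among the *Hox* genes 4 of 22 held it (18.2%) and among the factors 5 of 23 (21.7%). The share among the measured genes was thus near that of all genes. The matches of *Tbra*, of *Dkk1* (a secreted Wnt inhibitor) and of *Hoxd8* are shown because these genes return below. Each is 30 bases in the direction of the gene, with the motif or its reverse complement TCAAAG in capitals.
*Tbra*, chr17:8434177-8434206, plus strand: ctgctcggtactTCAAAGggtgtcccgccc
*Dkk1*, chr19:30549596-30549625, minus strand: ctcctcccaaagCTTTGAaatcccatcccg
*Dkk1*, chr19:30549653-30549682, minus strand: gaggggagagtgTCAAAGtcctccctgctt
*Hoxd8*, chr2:74704450-74704479, plus strand: gaaaaagcaggaCTTTGAttcgCTTTGAta
The match of *Tbra* starts 234 bases before the gene start, those of *Dkk1* 117 and 174 bases and those of *Hoxd8* 153 and 143 bases. A match describes these letters only, and binding was not measured.

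The libraries differed in depth and in kind. The *Hox* values imply between 17300000 and 43300000 reads in 6 libraries and 1980000 in control replicate 3, which had no read for 23 of the 38 *Hox* genes whose reads could be recovered, against 3 to 8 of 38 in the others. A gene without reads is written as a value just under 1 read, so it stands higher in a shallow library. Maternal null replicate 3 stood apart in another way. *Ctnnb1*, which encodes the Wnt transducer beta-catenin and is expressed throughout, was 4.77 log2 RPKM there and between 6.88 and 7.64 in the other 6 libraries. In the whole time course it lay between 4.52 and 4.77 in 3 libraries, whose labels are worded unlike the rest, between 6.11 and 7.85 in 41 and at -5.84 in the remaining library. The 16 genes above 4 log2 RPKM in the other day 2.5 libraries were on average 1.52 lower in maternal null replicate 3, and the 24 genes between -3 and 0 were 0.97 higher, on the log2 scale. What set this library apart was not tested, and the results for clusters, lists and leading genes are also given without it.

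The primitive streak and NMP genes rose after Wnt activation in both genotypes. The mean of 7 primitive streak and NMP genes (*Tbra*, *Cdx1*, *Cdx2*, *Nkx1-2*, *Fgf8*, *Wnt3a*, *Axin2*) in control cells was 4.07 ± 1.12 log2 RPKM at day 2.5 (SD over 4 libraries), up from -2.18 ± 0.75 before Wnt activation at day 2 (SD over 4 libraries). Maternal null cells went from -2.45 ± 1.44 (SD over 4 libraries) to 4.23 ± 0.51 (SD over 3 libraries). *Sox2*, which marks NMPs together with *Tbra*, is not in this list and had lower means at day 2.5. It went from 4.99 ± 0.97 to 4.58 ± 0.73 in control and from 5.14 ± 0.54 to 3.83 ± 0.48 in maternal null cells (SD, same libraries). *Nanog* rose from 3.41 ± 0.95 to 5.26 ± 0.78 in control and from 3.43 ± 0.82 to 4.60 ± 0.90 in maternal null cells. Defining markers of mesoderm, neural tissue and endoderm are not among the 73 genes and were not analysed here. RNA of whole cultures was sequenced, so fewer cells of a type and less RNA per cell cannot be told apart.

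No gene passed the test for a genotype difference. limma's moderated test on the log2 RPKM values of all 73 genes, with Benjamini-Hochberg adjustment, called 0 genes (0% of those tested), and the smallest adjusted p was 0.828. At an unadjusted p under 0.05 there were 2 genes (2.74%), *Hoxc8* with a higher and *Hoxd10* with a lower mean in maternal null cells. In none of the 73 genes did the libraries of the genotypes separate without overlap (0%). A count test, voom on the whole reads recovered for 35 *Hox* genes, also called 0 genes, and 3 had an unadjusted p under 0.05. Leaving out control replicate 2 gave 1 call, *Wnt3a* (adjusted p = 0.0480, limma), and 9 genes at an unadjusted p under 0.05. None of the differences given below passed the test with all 7 libraries. In simulated data with 20 of 73 genes changed, limma's test found 0.65% of genes changed 2-fold. It found 43.1% of those changed 4-fold and 84.1% of those changed 8-fold. The lack of calls therefore does not show equal levels in the genotypes.

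With all 7 libraries, the means leaned to higher values in maternal null cells for the *Hox1* to *Hox9* genes and to lower values elsewhere. Of the 27 *Hox1* to *Hox9* genes, 22 had a higher mean in maternal null cells, against 35 of all 73 genes (47.9%). The median difference, maternal null minus control, was 0.64 for them and -0.02 for all 73 genes, on the log2 scale. Without control replicate 4, the mean over the *Hox1* to *Hox9* genes differed by 0.21 in *HoxA*, 0.62 in *HoxB*, 0.83 in *HoxC* and 0.47 in *HoxD*. The libraries left are labelled line 1 of each genotype. These are separate lines, so genotype and line still cannot be told apart. Of the 12 *Hox10* to *Hox13* genes 9 had a lower mean, and of the 34 factors 24. On the recovered reads (voom), 5 of the 9 *Hox10* to *Hox13* genes with any read were higher and 4 lower. For the factors the lean turned without maternal null replicate 3, with 24 higher and 10 lower. Without maternal null replicate 3 the mean was higher for 21 of the 27 *Hox1* to *Hox9* genes and for 49 of all 73, and the median difference was 0.22 and 0.21, so that the *Hox1* to *Hox9* genes no longer stood above the rest by this measure. With every library centred on its own median, which moved all differences down by 0.67, 13 of the 27 and 20 of the 73 remained higher.

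**Figure D1:**
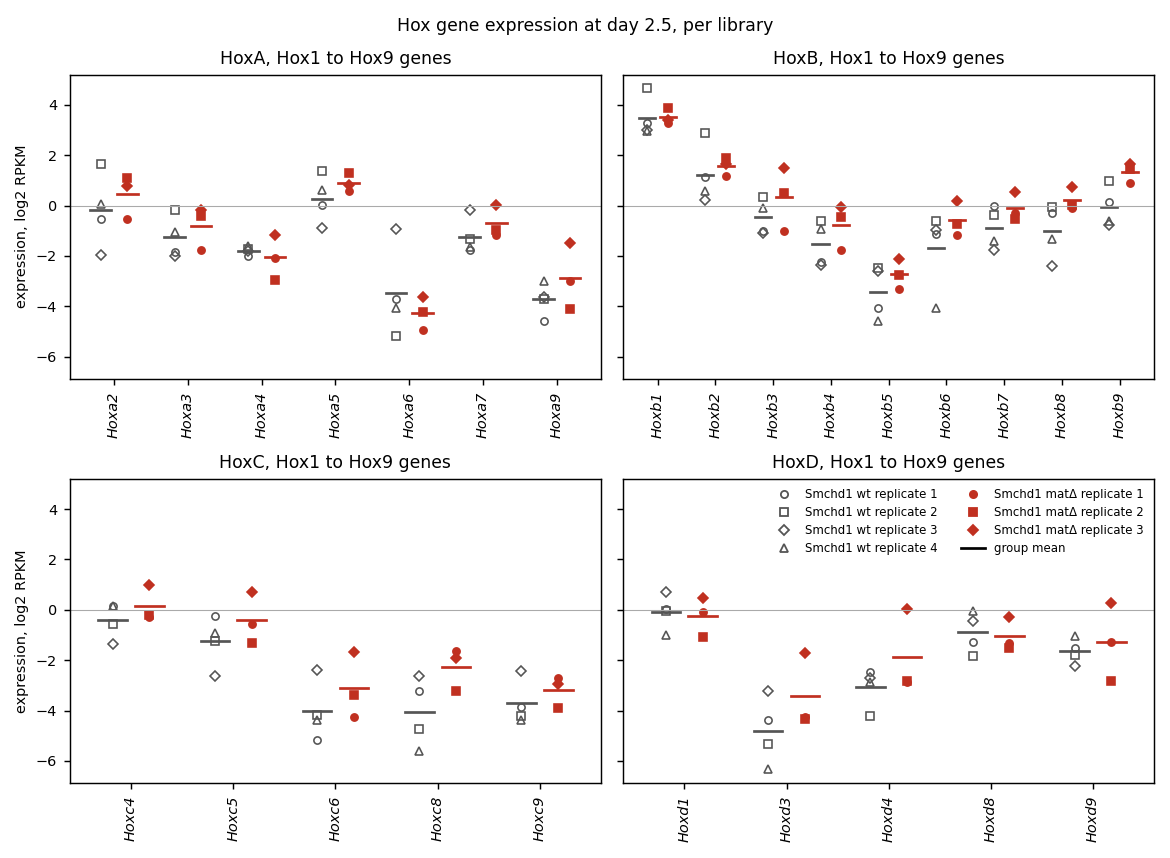
Log2 RPKM of 26 *Hox1* to *Hox9* genes at day 2.5, by cluster and from anterior to posterior along the x axis, with 4 control libraries as open grey symbols, 3 maternal null libraries as filled red symbols and group means as bars. The genotypes overlap for every gene, and the red diamonds (maternal null replicate 3) are the highest of the 7 libraries for 16 of them.

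*HoxB* had a higher maternal null mean for 9 of its 9 genes. The mean over *Hoxb1* to *Hoxb9* was -0.47, 0.52, -0.97 and -1.06 log2 RPKM in control replicates 1 to 4 and -0.25, 0.36 and 0.82 in maternal null replicates 1 to 3. Control replicate 2 stood above 2 of the 3 maternal null libraries, and the groups overlapped. The means of -0.49 ± 0.72 (SD, n = 4) in control and 0.31 ± 0.54 (SD, n = 3) in maternal null cells differed by 0.81, and the difference was 0.55 without maternal null replicate 3 and 0.13 after centring on the library median.

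The most posterior gene of the group, *Hoxb9* (chromosome 11, 96271457 to 96276595, plus strand, GRCm38), which patterns the thorax, showed the largest difference in *HoxB*. Its values were 0.13, 0.97, -0.77 and -0.62 log2 RPKM in control replicates 1 to 4 and 0.90, 1.45 and 1.66 in maternal null replicates 1 to 3, which rest on 84, 190, 3 and 29 reads and on 153, 305 and 230 reads. Of the control libraries only replicate 2 reached the range of the maternal null libraries, just above the lowest of them. The difference was 1.41 (SE 0.72, limma adjusted p = 0.828, unadjusted p = 0.0578), a 2.66-fold ratio of geometric means, and 1.25 without maternal null replicate 3. Its neighbour *Hoxb8* was at -0.29, -0.05, -2.39 and -1.34 log2 RPKM in control and at -0.11, 0.04 and 0.74 in maternal null cells, a difference of 1.24 (SE 0.74), and 0.98 without maternal null replicate 3. The value of *Hoxb8* in control replicate 3 rests on 1 read. Without that library its difference was 0.79, and without control and maternal null replicate 3 together 0.53.

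At the other end of the cluster stood *Hoxb1*, an early Wnt and retinoic acid target of the posterior epiblast, with the smallest difference of *HoxB*. It was the highest gene of the cluster, at 3.27, 4.65, 3.01 and 2.98 log2 RPKM in control and 3.27, 3.87 and 3.39 in maternal null cells. The difference was 0.03 (SE 0.72), and its sign changed with single libraries left out. *Hoxb2* (0.37, SE 0.74) and *Hoxb3* (0.78, SE 0.75) lay between, and *Hoxb3* differed by 0.21 without maternal null replicate 3. Over the 9 *HoxB* genes the difference grew with the paralogue number (Spearman's rho 0.93, and 0.95 without maternal null replicate 3). The same rho was 0.31 for 8 *HoxA* genes, 0.00 for 5 *HoxC* genes and -0.20 for 5 *HoxD* genes, and without maternal null replicate 3 it was -0.048, 0.80 and -0.20. In *HoxB* it was -0.45 for the differences at day 2 and -0.15 at day 3. At day 2.5 the rho of *HoxB* was 0.85 without control and maternal null replicate 3 together. Between the same-numbered libraries 1, 2 and 3 it was 0.27, 0.57 and 0.55. Control replicate 3 had 0, 2, 0, 1 and 3 reads for *Hoxb5* to *Hoxb9*. These are descriptions over genes that share libraries and depth.

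**Figure D2:**
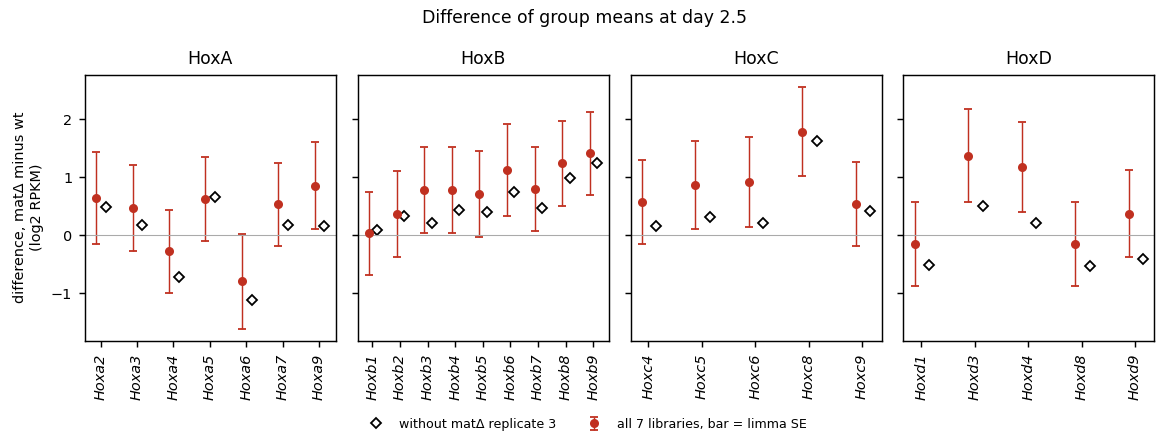
Difference in mean log2 RPKM, maternal null minus control, for 26 *Hox1* to *Hox9* genes at day 2.5, with all 7 libraries (red circles, bars are limma's SE) and without maternal null replicate 3 (open diamonds). In *HoxB* the circles climb from 0.03 for *Hoxb1* to 1.41 for *Hoxb9*, and in *HoxD* the circles of *Hoxd3* and *Hoxd4* lie above 1 and their diamonds at 0.51 and 0.22.

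*HoxC* also had a higher maternal null mean for all 5 of its *Hox4* to *Hox9* genes, at low levels. The mean over the 5 genes was -2.47, -2.98, -2.29 and -3.03 log2 RPKM in control replicates 1 to 4 and -1.88, -2.42 and -0.97 in maternal null replicates 1 to 3. Maternal null replicate 2 lay among the control libraries and the other 2 above them. The difference was 0.94, with group means of -2.69 ± 0.37 (SD, n = 4) and -1.75 ± 0.73 (SD, n = 3), and it was 0.55 without maternal null replicate 3 and 0.27 after centring.

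*Hoxc8* (chromosome 15, 102990607 to 102994111, plus strand), which acts at the thoracic level, had the smallest unadjusted p of the 73 genes. It stood at -3.23, -4.74, -2.64 and -5.61 log2 RPKM in control replicates 1 to 4 and at -1.64, -3.24 and -1.93 in maternal null replicates 1 to 3. The reads behind these values were 9, 4, 0 and 1 in control and 29, 13 and 21 in maternal null libraries. Control replicate 3, the shallow library, had no read, and its value is only the height of an empty gene there. The difference was 1.79 (SE 0.77, limma adjusted p = 0.828, unadjusted p = 0.0270). It was 1.62 without maternal null replicate 3 and 2.26 without control replicate 3. Of the other *HoxC* genes, *Hoxc4* was at 0.13, -0.56, -1.35 and 0.14 in control and -0.27, -0.21 and 0.99 in maternal null cells, *Hoxc6* differed by 0.92 (SE 0.78) and *Hoxc9* by 0.54 (SE 0.73). Without maternal null replicate 3 these differences were 0.17 for *Hoxc4*, 0.21 for *Hoxc6* and 0.42 for *Hoxc9*. The probe of *Hoxc5* contains those of *Hoxc6*, *Hoxc8* and *Hoxc9* and reaches into that of *Hoxc10*, so reads of these genes may be shared.

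In *HoxD* the difference rested on maternal null replicate 3. The mean over *Hoxd1*, *Hoxd3*, *Hoxd4*, *Hoxd8* and *Hoxd9* was -1.92, -2.64, -1.58 and -2.26 log2 RPKM in control replicates 1 to 4 and -1.96, -2.52 and -0.25 in maternal null replicates 1 to 3. The first and second maternal null libraries lay inside the control range and the third above it. The difference was 0.52 with all libraries, -0.14 without that library and -0.15 after centring on the library median.

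*Hoxd3* and *Hoxd4* carried most of it. *Hoxd4*, a gene of the hindbrain and neck, was at -2.46, -4.21, -2.70 and -2.86 log2 RPKM in control and -2.85, -2.83 and 0.01 in maternal null cells, with 84 reads in maternal null replicate 3 and no more than 18 in any other library. *Hoxd3* had 36 reads there and no more than 9 elsewhere. Its difference was 1.37 (SE 0.80) and 0.51 without that library. The probes of *Hoxd3* (chromosome 2, 74711927 to 74748442) and *Hoxd4* (74711929 to 74729160) overlap, and their reads cannot be told apart where they do. *Hoxd8* differed by -0.15 (SE 0.73), and -0.53 without that library.

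*HoxA* had a small difference in its mean over genes. Its mean over 8 genes was -1.24, -0.35, -0.79 and -0.70 log2 RPKM in control replicates 1 to 4 and -1.07, -0.59 and -0.10 in maternal null replicates 1 to 3. Maternal null replicates 1 and 2 lay within the control range and replicate 3 above it. The difference was 0.19, and it turned to -0.06 without maternal null replicate 3 and to -0.49 after centring. It was 0.57 by the median over genes and 0.43 on the recovered reads, which cover 7 of the 8 genes and so another gene set.

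Single *HoxA* genes differed in either direction. *Hoxa2* (0.64, SE 0.79), *Hoxa5* (0.62, SE 0.73) and *Hoxa9* (0.86, SE 0.75) had higher means in maternal null cells, and after centring *Hoxa2* (-0.03) and *Hoxa5* (-0.05) changed sign. *Hoxa9* differed by 0.17 without maternal null replicate 3, and *Hoxa2* by 0.053 without the shallow control replicate 3. *Hoxa6* had 0 to 2 reads in every library, and its difference of -0.79 (SE 0.81) became 0.051 without control replicate 3. The probe of *Hoxa3* contains those of *Hoxa4*, *Hoxa5* and *Hoxa6*, so reads of these genes may be shared.

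**Figure D3:**
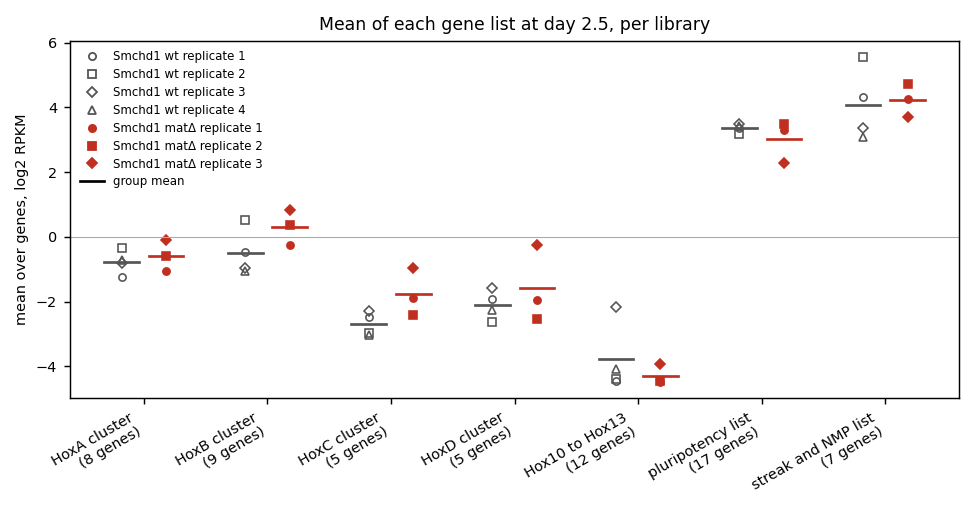
Mean log2 RPKM over the genes of each list (names and gene numbers on the x axis) in each day 2.5 library, with control libraries in open grey, maternal null libraries in filled red and group means as bars. Control replicate 3 is alone at -2.18 for *Hox10* to *Hox13*, and maternal null replicate 3 is the lowest for the pluripotency list, at 2.28, and the highest for all 4 clusters.

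The *Hox10* to *Hox13* genes, which pattern the lumbar, sacral and tail regions, ranged from 0 reads in all 7 libraries to 90 reads in a library. *Hoxd13* had 35, 48, 0 and 25 reads in control and 45, 90 and 34 in maternal null libraries, the most of the list in 6 of the 7 libraries. Their mean was -4.44, -4.37, -2.18 and -4.09 log2 RPKM in control replicates 1 to 4 and -4.47, -4.46 and -3.94 in maternal null replicates 1 to 3. Control replicate 3, the library with few reads, stood above all others. The difference of -0.52 became 0.01 without it. *Hoxc11*, *Hoxc12* and *Hoxd12* had 0 reads in all 7 libraries and still gave a difference of -1.27 each, which is the difference in depth alone. *Hoxd10* (chromosome 2, 74691924 to 74695105, plus strand), with the second smallest unadjusted p of the 73 genes (difference -1.69, SE 0.79, unadjusted p = 0.0391, limma adjusted p = 0.828), had 1, 3, 0 and 0 reads in control and 0, 0 and 1 in maternal null libraries. Its difference was -0.91 without control replicate 3.

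Pluripotency factors were lower on average in maternal null cells, and that came with maternal null replicate 3. The mean over 17 core and naive pluripotency genes was 3.35, 3.17, 3.48 and 3.43 log2 RPKM in control replicates 1 to 4 and 3.29, 3.49 and 2.28 in maternal null replicates 1 to 3. The first and second maternal null libraries fell within the control range or just above it, and the third was lowest of all for 12 of the 17 genes. The difference was -0.34 (3.36 ± 0.14, SD, n = 4, against 3.02 ± 0.65, SD, n = 3), with 14 genes lower and 3 higher. It was 0.03 without that library, with 9 lower and 8 higher.

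Among the core factors, *Pou5f1* (Oct4; chromosome 17, 35506018 to 35510772) was at 8.56, 8.57, 7.80 and 7.22 log2 RPKM in control and 8.59, 8.13 and 4.42 in maternal null cells. A single maternal null library was low, and the difference of -0.99 (SE 0.82) became 0.32 without it. *Nanog* was at 4.88, 6.43, 4.86 and 4.88 in control and 4.71, 5.44 and 3.64 in maternal null cells, a difference of -0.67 (SE 0.73), and -0.19 without maternal null replicate 3. *Sox2* was at 3.54, 4.63, 4.96 and 5.18 in control and 3.60, 4.39 and 3.51 in maternal null cells, a difference of -0.74 (SE 0.72), and -0.58 without maternal null replicate 3.

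*Tdgf1* (Cripto, a Nodal co-receptor) had the lowest difference of all factors. It stood at 4.78, 4.97, 6.80 and 6.27 log2 RPKM in control and 4.54, 4.89 and 3.83 in maternal null cells. Control replicates 3 and 4 were high, and replicates 1 and 2 lay near the maternal null libraries. The difference was -1.29 (SE 0.73, unadjusted p = 0.0885, limma adjusted p = 0.828) and -0.99 without maternal null replicate 3. The naive factors *Klf4* (0.73, SE 0.72) and *Tbx3* (0.86, SE 0.71) had higher means in maternal null cells, and *Esrrb* differed by -0.28 (SE 0.71).

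**Figure D4:**
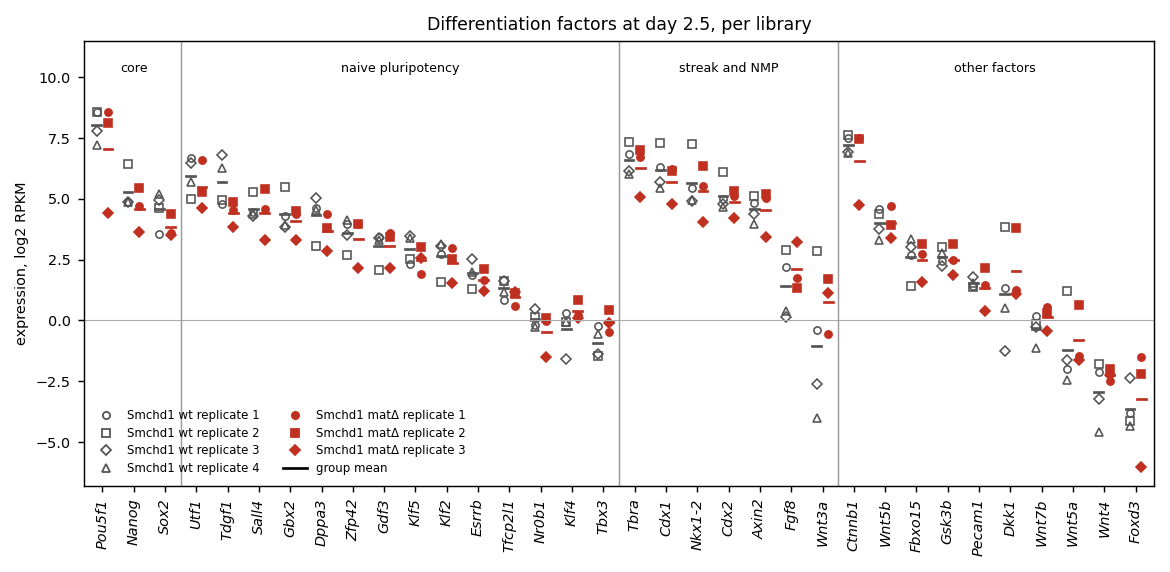
Log2 RPKM of the 34 factors at day 2.5, grouped by list and ordered by control mean, with control libraries in open grey, maternal null libraries in filled red and group means as bars. Maternal null replicate 3 (red diamonds) is the lowest library for 21 of the 34 factors, and *Wnt3a* spreads from -3.99 to 2.85 within the control libraries.

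The streak and NMP genes had list means that overlapped between the genotypes and varied among control libraries. Their mean was 4.31, 5.55, 3.35 and 3.07 log2 RPKM in control replicates 1 to 4 and 4.25, 4.72 and 3.70 in maternal null replicates 1 to 3. The maternal null libraries all lay within the control range. The difference was 0.15, with 2 of 7 genes higher and 5 lower, and 0.41 without maternal null replicate 3, with 6 higher and 1 lower. The median over the genes gave -0.31 and centring on the library median -0.52.

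Control replicate 2 was the highest of the 7 libraries for 5 of these 7 genes. *Tbra* (chromosome 17, 8434423 to 8442496, plus strand) was at 6.86, 7.33, 6.15 and 6.04 log2 RPKM in control and 6.71, 7.01 and 5.06 in maternal null cells, a difference of -0.33 (SE 0.73) and of 0.27 without maternal null replicate 3. *Cdx1* (-0.47, SE 0.73), *Cdx2* (-0.25, SE 0.72), which activate trunk *Hox* genes, and *Nkx1-2* (-0.33, SE 0.77), a marker of NMPs, had lower means in maternal null cells and differed by -0.0029, 0.083 and 0.30 without that library. *Axin2*, a target and inhibitor of Wnt signalling, differed by -0.02 (SE 0.72), and by 0.54 without maternal null replicate 3.

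*Wnt3a* (chromosome 11, 59248033 to 59290752, minus strand), the Wnt ligand of the tailbud, had the largest difference of the factors and the widest spread. It was at -0.41, 2.85, -2.61 and -3.99 log2 RPKM in control and -0.58, 1.71 and 1.13 in maternal null cells. Control replicate 2 was the highest library and control replicates 3 and 4 the lowest, so that the control values enclosed those of the maternal null. In control replicate 3, the shallow library, *Hoxc8* stood at -2.64 with 0 reads. Reads were not recovered for factors, so the low control values of *Wnt3a* may rest on few reads or none. The difference was 1.79 (SE 0.99, unadjusted p = 0.0803, limma adjusted p = 0.828) and 1.60 without maternal null replicate 3. It was 3.09 without control replicate 2 (limma adjusted p = 0.0480) and 0.81 without control replicate 4, the library of line 2. The adjusted p of *Wnt3a* lay between 0.0480 and 0.990 over all settings tried.

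The Wnt inhibitor *Dkk1* was at 1.34, 3.84, -1.27 and 0.52 log2 RPKM in control and 1.24, 3.81 and 1.09 in maternal null cells, a difference of 0.94 (SE 0.89), and 1.42 without maternal null replicate 3. Replicate 2 was the highest library in each genotype. The factors include 7 Wnt pathway genes outside the list above, *Dkk1* among them, a group formed after their values were seen. Of these, 4 had higher and 3 lower means in maternal null cells (median difference 0.39), and all 7 had higher means without maternal null replicate 3. *Foxd3*, a factor of the epiblast that was also picked after its values were seen, was at -3.79, -4.13, -2.36 and -4.33 in control and -1.51, -2.19 and -6.03 in maternal null cells. The first and second maternal null libraries were above all controls and the third below them. Reads were not recovered for factors, but *Hoxc9* stood at -3.86, -4.20, -2.42 and -4.39 in control on 5, 5, 0 and 2 reads. The values of *Foxd3* thus lie where *Hox* genes had few reads or none.

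The libraries of the 2 genotypes that carry the number 1 were the most alike of the 21 pairs. Over the 34 factors, control and maternal null replicate 1 differed by 0.45 log2 units (root mean square), whereas pairs of libraries within a genotype differed by 0.75 to 1.93. At near-equal depth (29800000 and 31900000 reads) the control and the maternal null library of this pair had 9 and 29 reads for *Hoxc8*, 7 and 22 for *Hoxa9*, 84 and 153 for *Hoxb9*, and 667 and 713 for *Hoxb1*. It went the other way for *Hoxc4*, with 84 and 68 reads, and *Hoxc5*, with 77 and 67, and of the 27 *Hox1* to *Hox9* genes 16 were higher and 11 lower in log2 RPKM in the maternal null library. This compares 2 libraries and not the genotypes.

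The differences at day 2.5 were also set against those at the neighbouring days. limma's test of the difference between differences called 0 of 73 genes against day 2 and 0 of 73 against day 3, and at an unadjusted p under 0.05 there was likewise no gene (0% each). The smallest adjusted p was 0.827 and 0.935. For *Hoxb9* the difference at day 2.5 exceeded that at day 2 by 3.02 (SE 1.79) and that at day 3 by 1.81 (SE 1.08), and for *Hoxc8* by 3.08 (SE 1.95) and 2.31 (SE 1.18). For *HoxB* as a whole the difference of means was -1.47 at day 2, where the control libraries had an SD of 2.35 (n = 4), 0.81 at day 2.5 and -0.37 at day 3. *HoxC* had -1.26, 0.94 and -0.02 at the same days. At day 2 the libraries also differed in depth, and 8 *Hox* genes that had 0 reads in all 8 libraries of that day each gave a difference of -1.97, so the day 2 values and the contrasts with day 2 carry a part set by depth alone.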

How the data were processed

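Reads of 7 day 2.5 mESC libraries had been trimmed by the authors with Trim Galore 0.4.4, mapped to GRCm38.p6 with HISAT2 2.0.5 and quantified in SeqMonk. The deposited log2 RPKM values are corrected by the authors for library size and transcript length and carry a value below 1 read for genes without reads. The raw count table was not used, because its time course headers are unreliable. Whole reads were recovered here from the low *Hox* values (197 of 197 values under 50 reads whole within 1%), with exon lengths of GENCODE for depth. They cover 38 of 39 *Hox* genes and no factor.

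All 73 genes were fitted with limma 3.58.1 in R 4.3.3 (genotype only, no trend, two-sided, Benjamini-Hochberg, threshold 0.05), and the test was tested on simulated data. Gene lists were averaged per library without a test. Alternatives were pseudocounts of 1 and 0.1, genes above 1 RPKM, limma-trend, centring, 1 fit over all days, voom, the replicate block, each library left out, and, chosen after seeing the data, control and maternal null replicate 3 both left out. Named genes are *Hox* genes of at least 1 RPKM in a genotype, in each cluster the 2 highest and the lowest difference among *Hox1* to *Hox9*, genes with an unadjusted p under 0.05, markers, and the 3 factors with the largest differences each way. Other genes were named after their values were seen. Members and lists were chosen with earlier results of these data known. Analyses used Python 3.11.15. Of the genes fitted, 1 is not reported here on its own.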

Additional observations from a re-analysis of the deposited data

Results flagged for a closer look

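With 38 groups of 4 control libraries examined, of which chance flags about 1 in 20, 2 had a library far from the other 3. *Nanog* was 6.43 log2 RPKM in control replicate 2, and between 4.86 and 4.88 in the other control libraries. The mean over the *Hox10* to *Hox13* genes was -2.18 log2 RPKM in control replicate 3, the library with 1980000 reads, and between -4.44 and -4.09 in the others. Groups of 3 maternal null libraries were too small for this examination.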

How the results depend on the processing

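limma called 0 of 73 genes at day 2.5 under the other scales, centring, limma-trend and the fit over all days, 0 of 32 genes above 1 RPKM, 0 of 35 *Hox* genes with voom, and between 0 and 1 with each library left out in turn, the call being *Wnt3a* without control replicate 2. Both tests against neighbouring days called 0 genes in every alternative. With the replicate block limma called 0 genes, and the list differences were 0.21 (*HoxA*), 0.62 (*HoxB*), 0.83 (*HoxC*), 0.47 (*HoxD*), -0.62 (*Hox10* to *Hox13*), -0.31 (pluripotency) and -0.18 (streak and NMP). Same-numbered libraries deviated from their group means with correlations of 0.05, 0.44 and 0.15 over 73 genes. These values do not settle whether the numbers mark pairs, and the main fit did not use them as pairs.

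Centring on the library median moved the differences of *HoxA* to -0.49, *HoxB* to 0.13, *HoxC* to 0.27 and the pluripotency list to -1.01, and log2(RPKM + 1) moved *HoxC* to 0.18. Leaving out each library gave -0.06 to 0.43 for *HoxA*, 0.55 to 1.14 for *HoxB*, 0.55 to 1.27 for *HoxC*, -0.14 to 1.00 for *HoxD*, -0.74 to 0.01 for *Hox10* to *Hox13*, -0.57 to 0.03 for the pluripotency list and -0.18 to 0.65 for the streak and NMP list. No gene above 1 RPKM was left in *HoxC*, *HoxD* or *Hox10* to *Hox13*.

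Of the 31 named genes, 18 kept their sign in every alternative, *Hoxb8*, *Hoxb9*, *Hoxc8* and *Wnt3a* among them, and 13 did not. Under centring the sign turned for *Hoxa2* (-0.027), *Hoxa5* (-0.047), *Hoxb1* (-0.64), *Hoxb2* (-0.30), *Hoxc4* (-0.094) and *Hoxc9* (-0.13). With single libraries left out it turned for *Cdx2* (-0.46 to 0.083), *Hoxa6* (-1.37 to 0.051), *Hoxb1* (-0.15 to 0.42), *Hoxd8* (-0.53 to 0.13), *Nkx1-2* (-0.85 to 0.30), *Pou5f1* (-1.76 to 0.32) and *Tbra* (-0.71 to 0.27). Under the replicate block it turned for *Hoxb1* (-0.13) and *Hoxd8* (0.13). Without control and maternal null replicate 3 together it turned for *Esrrb* (0.15), *Hoxa2* (-0.11), *Hoxb1* (-0.064), *Hoxc4* (-0.15), *Nkx1-2* (0.049), *Pou5f1* (0.24) and *Tbra* (0.12). The cause of these changes was not tested. Depth limits the *Hox* values of control replicate 3 most, where 23 of 38 genes had no read.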
